A study of Mus musculus with 7 samples.

Results

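The genes described here are 37 genes of pancreatic acinar cells, comprising digestive enzymes, their inhibitors and granule proteins, and 4 acinar transcription factors. They were listed by name from the known exocrine programme, at a time when earlier results of these data were known. Probes were linked to them through the transcript accession printed on the array, and where a gene had several probes the brightest over all arrays represented it. Of the 37 genes, 35 had a probe, all 35 were well above background on all 7 arrays and all 35 were tested, among 22911 genes named on the array and 13648 genes tested. Try10 and Ctrc had no probe matched to them and are not analysed here.

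The arrays measured islets isolated from male mice at 7 weeks of age by the labels and methods, although the sample titles carry a code, w11, that none of the sources explains. The 3 control samples were from Pdx1CreER Tg-; Wnt4 fl/fl littermates and the 4 Wnt4βKO samples from Pdx1CreER Tg+; Wnt4 fl/fl mice, so both groups carried the floxed Wnt4 alleles, and both groups received tamoxifen at 50 mg/mL by gavage at 4 to 5 weeks of age. Control replicates are numbered 2, 3 and 4 and Wnt4βKO replicates 1, 2, 3 and 4, as in the labels. The CreER is driven by a Pdx1 promoter, the transgene was present in the Wnt4βKO group alone, and RNA came from whole hand-picked islets, so each value is an average over all cells in the preparation.

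Acinar cells make, store and secrete the digestive enzymes, most of them as inactive zymogens packed in granules. Their genes are driven by the PTF1 complex, in which PTF1A pairs with an E-protein and with the RBPJ-like factor RBPJL, and by NR5A2 and BHLHA15 (MIST1). When islets are freed with collagenase and picked by hand, some acinar tissue comes along, so acinar mRNA is a usual finding in islet RNA and differs from one preparation to the next.

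Each value below is the log2 of a background-corrected, quantile-normalized spot signal, and each difference is Wnt4βKO minus control on that log2 scale. The arrays were alike in the share of probes well above background, which lay between 45.5% and 49.0%. All 7 arrays were on 1 slide, in 2 rows, and each row held arrays of both groups. Wnt4 itself, the inactivated gene, was at 11.51 ± 0.31 (SD, n = 3) in control islets and at 11.01 ± 0.22 (SD, n = 4) after inactivation. The difference was -0.49 ± 0.17 (SE), or 71.0% of control, and the groups overlapped. Its limma p was 0.0237 unadjusted and 0.651 when adjusted by Benjamini-Hochberg over all tested probes. Wnt4 was thus lower at an unadjusted p of 0.05 but not at an adjusted one. Across all 26151 tested probes, 4 passed an adjusted p of 0.05.

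Most acinar genes were lower in Wnt4βKO islets, but none passed the adjusted threshold. In the limma fit, 31 of the 35 genes had a negative difference, the median was -0.79 (57.8% of control), and the median over all 13648 tested genes was 0.01. The differences ran from -2.07 for Cuzd1 to 0.18 for Ctrb1, and 15 genes were at least 2-fold lower on average, a count not made over all tested genes. At an adjusted p under 0.05, 0 of 35 acinar genes were lower, beside 0.00765% of all tested probes, and the adjusted p-values of the 35 genes ran from 0.388 to 0.999. At an unadjusted p under 0.05, 16 of 35 were lower and 0 higher, beside 3.76% of all tested probes called lower. The 16 were Prss3, Try4, Cela3b, Pnliprp1, Pla2g1b, Amy1, Rnase1, Spink1, Gp2, Cuzd1, Klk1, Pdia2, Serpini2, Aqp12, Ptf1a and Rbpjl. Every Wnt4βKO array lay below every control array for 14 of 35, beside 3.83% of all probes with a value on every array. Acinar genes come from the same cells of each preparation, so they are not independent of each other and these counts carry no test of their own. The unadjusted count was 8 when control replicate 2 was left out, 10 when control replicate 4 was and 24 when Wnt4βKO replicate 2 was, beside 3.83%, 4.23% and 4.01% of all tested probes. With Wnt4βKO replicate 2 left out, 23 genes had no overlap, but fewer arrays overlap less often and the share over all probes was then 6.64%. In bulk islet RNA, fewer acinar cells and less acinar mRNA per cell cannot be told apart.

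**Figure D1:**
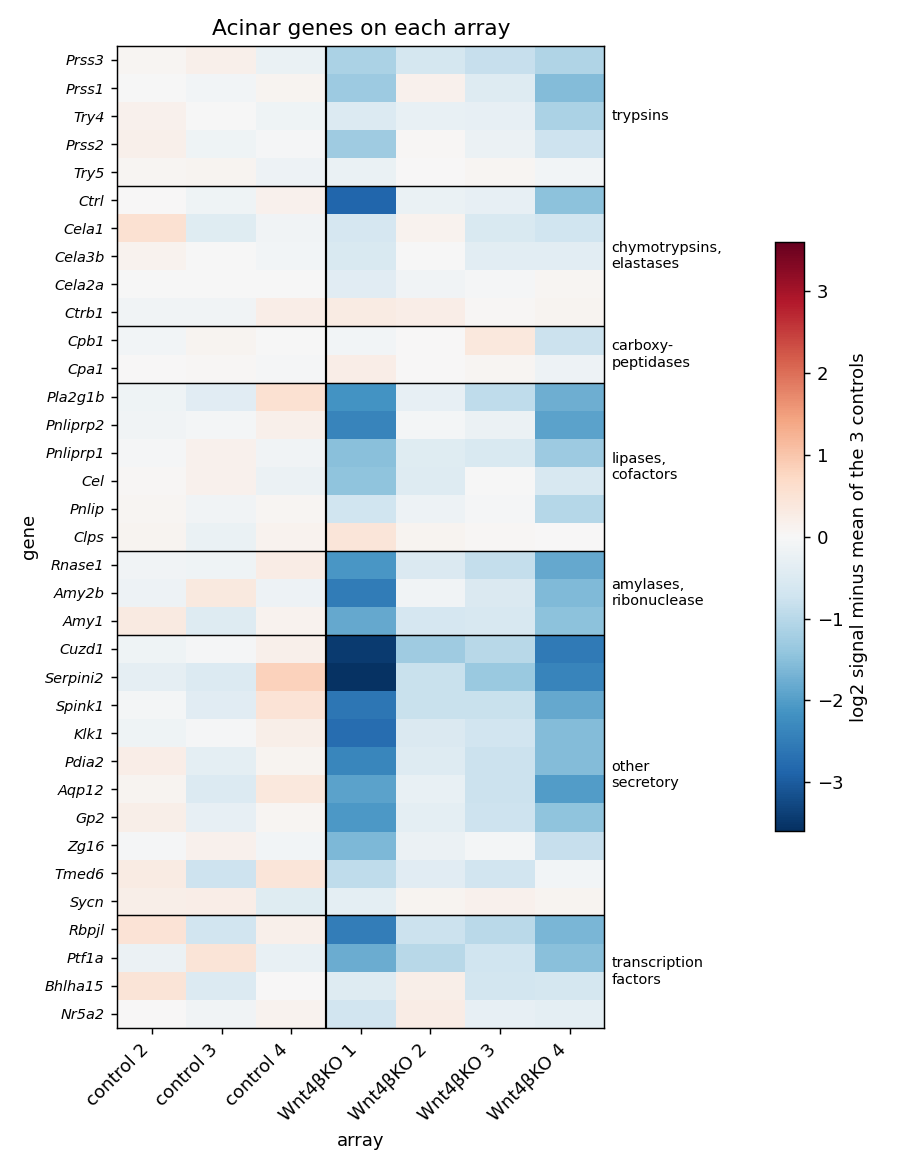
Each row is one of the 35 tested acinar genes, ordered by class and by difference, and each column one of the 7 arrays (3 control, 4 Wnt4βKO); colour is the log2 signal minus the mean of the 3 controls. The columns of Wnt4βKO replicates 1 and 4 are darkest. Rows such as those of Ctrb1, Cpa1, Clps, Sycn, Try5 and Cela2a stay pale on all arrays.

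Of the 4 transcription factors, Ptf1a and Rbpjl had groups that did not overlap and passed an unadjusted p of 0.05. Ptf1a, which encodes the DNA-binding subunit that commits cells to the acinar fate, measured 7.69, 8.37 and 7.65 in control islets (replicates 2, 3 and 4, the order used throughout), while Wnt4βKO replicates 1 to 4 gave 6.10, 6.91, 7.19 and 6.40. Every Wnt4βKO array was therefore below the lowest control, and the difference was -1.25 ± 0.29 (SE; limma adjusted p = 0.480). Its probe was dim and the size depended on the background step, at -2.04 with an offset of 0 and -1.70 with no background correction. Rbpjl, the acinar-restricted partner of PTF1A, measured 10.25, 9.05 and 9.94 in control and 7.25, 8.98, 8.79 and 8.10 in Wnt4βKO islets. Here the groups came close, as control replicate 3 exceeded Wnt4βKO replicate 2 by little, and the difference was -1.47 ± 0.46 (SE; limma adjusted p = 0.608).

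The other two factors overlapped between groups. Bhlha15, which organizes the secretory apparatus of acinar cells, measured 10.17, 9.22 and 9.73 in control and 9.24, 9.93, 9.04 and 9.08 in Wnt4βKO islets, a difference of -0.38 (95% interval -1.04 to 0.28, limma adjusted p = 0.854). Nr5a2, a nuclear receptor that cooperates with PTF1, measured 6.84, 6.71 and 6.98 in control and 6.16, 7.12, 6.56 and 6.48 in Wnt4βKO islets, a difference of -0.26 (95% interval -0.75 to 0.23, limma adjusted p = 0.863). The second Wnt4βKO replicate had the highest Nr5a2 signal of all 7 arrays and the second highest Bhlha15 signal.

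**Figure D2:**
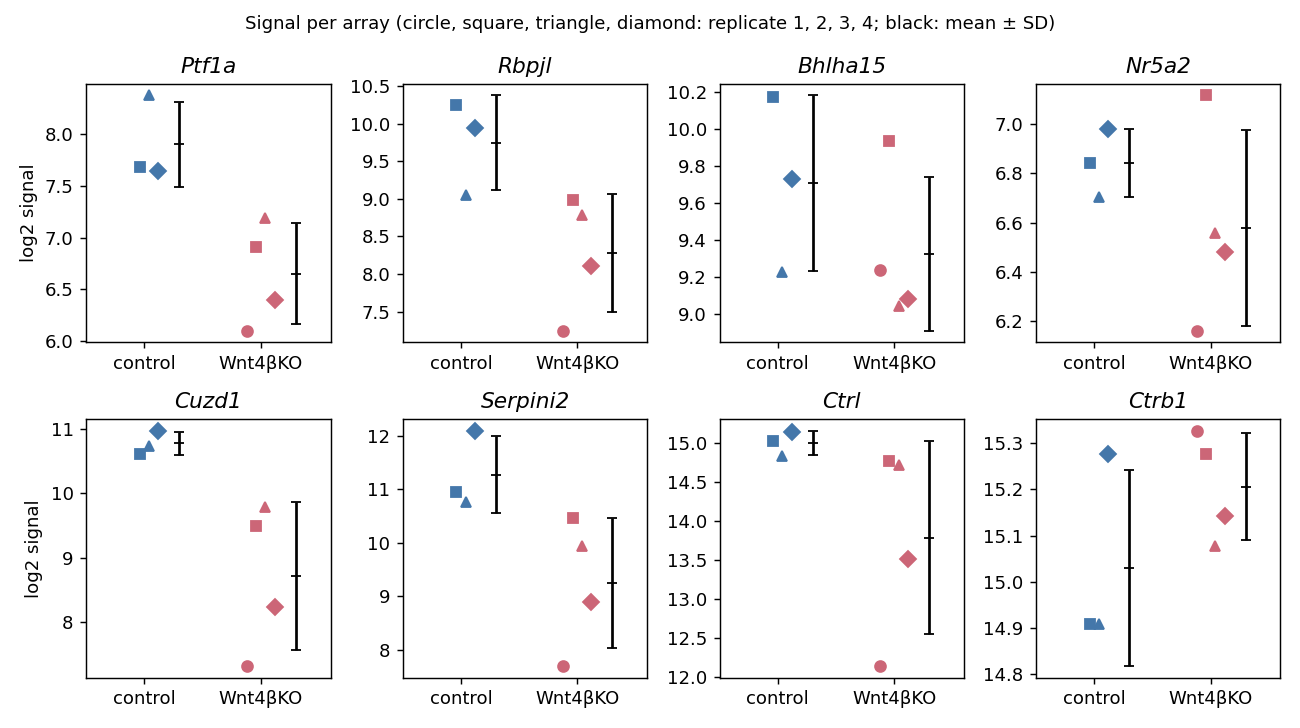
Log2 signal of 8 acinar genes on each array in control (blue, n = 3) and Wnt4βKO (red, n = 4) islets; the marker shape gives the replicate number and the black bar the group mean ± SD, and each panel has its own vertical range. Ptf1a, Rbpjl, Cuzd1, Serpini2 and Ctrl show no overlap between groups, while Bhlha15, Nr5a2 and Ctrb1 overlap.

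The PTF1 complex binds a composite site made of an E-box and an RBPJ-type box, so the 250 bases before the start of each gene were searched on both strands for the letters CANNTG (E-box) and TTTCCCA (box). RefSeq promoters on mouse build GRCm38.p6 were held for 31 of the 37 genes, 33 windows in all, since Amy1 and Nr5a2 each have 2. The box was present in 5 of 33 windows (15.2%), against 6.82% of 32851 windows of the same length for all genes, and the E-box in 26 of 33 (78.8%), against 66.2%. All 5 windows with the box also held an E-box (15.2%), against 4.65% of all windows, and the nearest E-box began 10 to 44 bases from the start of the box without overlapping it. The sequences of these 5 are shown because they hold the letters of both parts, each 5′ to 3′ on the strand of its gene and ending at the base before the start, with the box in capitals (TGGGAAA where it lies on the other strand).
Cel: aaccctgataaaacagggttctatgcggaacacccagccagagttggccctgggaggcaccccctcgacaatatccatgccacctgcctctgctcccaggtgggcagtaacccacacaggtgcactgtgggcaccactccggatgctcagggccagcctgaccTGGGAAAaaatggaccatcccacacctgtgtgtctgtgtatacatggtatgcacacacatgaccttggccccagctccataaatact
Cela2a: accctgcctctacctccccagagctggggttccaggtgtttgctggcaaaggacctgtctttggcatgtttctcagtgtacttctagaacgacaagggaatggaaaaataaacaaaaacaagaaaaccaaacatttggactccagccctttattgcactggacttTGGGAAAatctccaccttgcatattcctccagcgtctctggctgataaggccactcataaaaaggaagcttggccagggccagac
Cpa1: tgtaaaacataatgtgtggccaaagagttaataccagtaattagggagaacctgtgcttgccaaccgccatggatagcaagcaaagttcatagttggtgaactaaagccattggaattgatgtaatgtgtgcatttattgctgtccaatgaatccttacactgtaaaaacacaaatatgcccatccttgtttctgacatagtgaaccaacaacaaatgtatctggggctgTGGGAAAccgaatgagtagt
Ctrb1: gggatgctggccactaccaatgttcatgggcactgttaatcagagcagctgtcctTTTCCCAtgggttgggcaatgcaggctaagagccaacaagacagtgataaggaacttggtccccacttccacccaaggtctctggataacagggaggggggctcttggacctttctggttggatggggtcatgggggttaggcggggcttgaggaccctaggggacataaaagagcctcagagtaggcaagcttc
Prss2: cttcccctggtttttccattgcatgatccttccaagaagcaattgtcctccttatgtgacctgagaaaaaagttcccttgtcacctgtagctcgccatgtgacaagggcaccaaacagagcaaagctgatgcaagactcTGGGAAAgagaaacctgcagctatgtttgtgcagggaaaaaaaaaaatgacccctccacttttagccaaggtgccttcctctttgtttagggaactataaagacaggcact
The Cel window lies at chr2:28563404-28563653 on the minus strand, that of Cela2a at chr4:141826006-141826255 on the minus strand, that of Cpa1 at chr6:30638968-30639217 on the plus strand, that of Ctrb1 at chr8:111691011-111691260 on the minus strand and that of Prss2 at chr6:41521526-41521775 on the plus strand. These 5 genes differed by -0.63, -0.12, 0.04, 0.18 and -0.54 in that order, each nearer to 0 than the median of the 35 genes. The windows of Amy1, Pla2g1b, Pnlip, Ptf1a, Rnase1 and Sycn held neither motif. A match of letters is a description and not evidence of binding, and a window without them says nothing about the factor.

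Of the trypsins, the serine proteases that activate the other zymogens once in the gut, all 5 tested genes were lower on average (median -0.55). At an unadjusted p under 0.05, 2 of 5 were lower, beside 3.76% of all tested probes. Prss3 had the lowest adjusted p of the 35 genes. It measured 13.89, 14.00 and 13.59 in control and 12.69, 13.18, 12.99 and 12.73 in Wnt4βKO islets. The Wnt4βKO replicates were close to each other, at 45.4%, 64.0%, 56.1% and 46.9% of the control mean, and the difference was -0.93 ± 0.15 (SE; limma adjusted p = 0.388). Try4 also showed no overlap, at 12.81 to 13.11 in control and 11.80 to 12.69 in Wnt4βKO islets, a difference of -0.55 ± 0.22 (SE; limma adjusted p = 0.682).

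Prss1, Prss2 and Try5 overlapped between groups. Prss1 measured 9.08 to 9.28 in control islets, while Wnt4βKO replicates 1 to 4 gave 7.87, 9.33, 8.72 and 7.60, so that replicates 1 and 4 were far below control and replicate 2 above it. Prss2, a major trypsinogen, gave 13.67, 14.99, 14.73 and 14.21 in the 4 Wnt4βKO replicates against 14.79 to 15.14 in control, a difference of -0.54. Try5 lay at 14.06 to 14.34 in Wnt4βKO and 14.10 to 14.39 in control islets, a difference of -0.07 with a 95% interval of -0.32 to 0.18. The trypsin genes are close copies of each other, as are the amylase genes, and whether a probe also binds transcripts of a related copy was not tested.

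Chymotrypsins and elastases, proteases that cut after bulky and small side chains, diverged within the class. Ctrl, a chymotrypsin-like protease, measured 15.02, 14.83 and 15.14 in control islets. In Wnt4βKO replicates 1 to 4 it measured 12.14, 14.77, 14.71 and 13.51, or 13.8%, 85.3%, 82.1% and 35.7% of the control mean. The groups did not overlap, yet replicates 2 and 3 were just below the lowest control, and with that spread the difference of -1.21 ± 0.61 (SE) had a limma adjusted p of 0.757. Ctrb1, which encodes chymotrypsinogen B, gave 14.91, 14.91 and 15.28 in control and 15.33, 15.28, 15.08 and 15.14 in Wnt4βKO islets, a difference of 0.18 (95% interval -0.10 to 0.45). On the array of Wnt4βKO replicate 1, where Ctrl was lowest, Ctrb1 was at its highest on this quantile-normalized scale. With the scanner's own processed signal, scaled to the 75th percentile of each array, Ctrb1 was at 9.25 on that array. Control replicates 2 and 4 were then higher, at 9.33 and 9.40, as was Wnt4βKO replicate 3, at 9.26.

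The 3 elastase genes had smaller differences. Cela3b measured 15.60 to 15.82 in control and 15.14 to 15.68 in Wnt4βKO islets, a difference of -0.33 ± 0.13 (SE; limma adjusted p = 0.688). Cela1 differed by -0.43 (95% interval -1.08 to 0.21) and Cela2a by -0.12 (95% interval -0.40 to 0.15), both with overlapping groups. Cela2a took the same value, 15.19, on all 3 control arrays, because quantile normalization gives the brightest probes one of a small set of shared values, so its control SD of 0 is set by the normalization.

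The 2 carboxypeptidases, which remove residues from the end of a peptide, did not pass any threshold and overlapped between groups. Cpa1 measured 14.83, 14.86 and 14.79 in control and 15.08, 14.83, 14.91 and 14.66 in Wnt4βKO islets, a difference of 0.04 (95% interval -0.20 to 0.29). Cpb1 measured 13.46 to 13.66 in control and 12.79 to 13.94 in Wnt4βKO islets, a difference of -0.12 (95% interval -0.69 to 0.46). For both genes the fourth Wnt4βKO replicate gave the lowest value, while the first was at 119% and 93.4% of the control mean.

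Lipases and their cofactors had a median difference of -0.79 over 6 genes. Of these, 2 were lower at an unadjusted p under 0.05, beside 3.76% of all tested probes. Pnliprp1, a lipase-related protein, measured 14.89, 15.08 and 14.81 in control and 13.41, 14.49, 14.36 and 13.61 in Wnt4βKO islets. It was the 1 gene of the class with no overlap, beside 3.83% of all probes with a value on every array. Pnliprp1 differed by -0.96 ± 0.27 (SE; limma adjusted p = 0.589). Pla2g1b, the secreted phospholipase of pancreatic juice, measured 12.05, 11.80 and 12.74 in control and 10.05, 11.91, 11.28 and 10.44 in Wnt4βKO islets, a difference of -1.28 ± 0.46 (SE; limma adjusted p = 0.651). Its groups overlapped through Wnt4βKO replicate 2 and control replicate 3.

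Pnliprp2, a second lipase-related gene, varied widely among the Wnt4βKO replicates. It measured 10.02, 10.08 and 10.33 in control and 7.77, 10.06, 9.94 and 8.20 in Wnt4βKO islets. Replicates 1 and 4 were thus at 19.4% and 26.1% of the control mean and replicates 2 and 3 at 94.8% and 86.7%, and the group difference was -1.15 ± 0.58 (SE; limma adjusted p = 0.759). Cel, the bile salt-activated lipase, differed by -0.63 and Pnlip, the main triglyceride lipase, by -0.49, both with overlapping groups. Clps, which encodes colipase, the cofactor that anchors pancreatic lipase on fat droplets, measured 14.94, 14.63 and 14.99 in control and 15.28, 14.94, 14.89 and 14.86 in Wnt4βKO islets, a difference of 0.14 (95% interval -0.18 to 0.46).

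The starch- and RNA-degrading enzymes were lower on average as a class, with a median of -1.19. Amy1 measured 11.54, 10.75 and 11.32 in control and 9.38, 10.59, 10.63 and 9.73 in Wnt4βKO islets, with no overlap and a difference of -1.12 ± 0.35 (SE; limma adjusted p = 0.608). Its other probe gave -1.06. Rnase1, the secreted pancreatic ribonuclease, measured 12.46, 12.42 and 12.85 in control and 10.49, 12.06, 11.72 and 10.73 in Wnt4βKO islets, again with no overlap, and differed by -1.33 ± 0.39 (SE; limma adjusted p = 0.594). Amy2b had overlapping groups, with Wnt4βKO replicate 2 at 92.2% of the control mean and replicate 1 at 17.3%, and a difference of -1.19 (95% interval -2.47 to 0.09).

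The lowest values relative to control were found among the other secretory genes, with a median of -1.27. In this class 7 of 10 passed an unadjusted p of 0.05, beside 3.76% of all tested probes called lower. No overlap was shown by 6 of 10, beside 3.83% of all probes with a value on every array. Cuzd1, a zymogen granule membrane protein, measured 10.61, 10.74 and 10.97 in control and 7.32, 9.50, 9.79 and 8.23 in Wnt4βKO islets. All 4 replicates were well below control, at 9.1%, 41.3%, 50.5% and 17.1% of its mean, and the difference was -2.07 ± 0.57 (SE; limma adjusted p = 0.564). Serpini2, which encodes the pancreas-enriched serpin pancpin, measured 10.94, 10.76 and 12.09 in control and 7.69, 10.46, 9.93 and 8.89 in Wnt4βKO islets, a difference of -2.02 ± 0.66 (SE; limma adjusted p = 0.623).

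Spink1, the trypsin inhibitor that protects acinar cells from premature zymogen activation, measured 13.31, 12.96 and 13.86 in control and 10.77, 12.57, 12.57 and 11.52 in Wnt4βKO islets. It differed by -1.52 ± 0.47 (SE; limma adjusted p = 0.608) with no overlap. This estimate was larger in size than that of any trypsin gene, but differences between genes were not tested. The groups did not overlap either for Klk1, tissue kallikrein (-1.38 ± 0.50 SE), Pdia2, a pancreas-enriched protein disulfide isomerase (-1.29 ± 0.43 SE), or Gp2, the main membrane glycoprotein of zymogen granules (-1.15 ± 0.39 SE), with limma adjusted p-values of 0.670, 0.628 and 0.631. Aqp12, an aquaporin of acinar cells, differed by -1.25 (limma adjusted p = 0.675), with Wnt4βKO replicate 2 inside the control range.

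The probes that represented the remaining genes of the class did not pass an unadjusted p of 0.05. Zg16, a zymogen granule lectin, differed by -0.68 (95% interval -1.51 to 0.14). Tmed6, a member of the family that moves cargo between the endoplasmic reticulum and the Golgi apparatus, differed by -0.53 (95% interval -1.27 to 0.20), and by -0.74 with its dimmer probe, which passed an unadjusted p of 0.05. Sycn, a granule protein that acts in exocytosis, measured 14.99, 15.02 and 14.34 in control and 14.42, 14.89, 14.94 and 14.89 in Wnt4βKO islets, a difference of 0.00 (95% interval -0.47 to 0.48).

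The log2 signal of most acinar genes was more spread among Wnt4βKO than among control islets. Averaged over the 35 genes, the log2 signal of control replicates 2, 3 and 4 came to 12.71, 12.53 and 12.74, and that of Wnt4βKO replicates 1 to 4 to 11.24, 12.39, 12.21 and 11.58. All 4 Wnt4βKO means were below the lowest control mean, but replicates 2 and 3 were nearer to control than to replicates 1 and 4. The SD among Wnt4βKO replicates exceeded that among control replicates for 28 of 35 genes, with a median SD of 0.59 against 0.20, beside 50.6% of all tested genes, with medians of 0.17 and 0.16. The authors had left out 1 control sample for quality, and whether that narrowed the control spread was not tested. Wnt4βKO replicates 1 and 4 were the 2 lowest arrays for 26 of 35 genes, and replicate 1 was the lowest array for 24. These counts were not made over all tested genes. The number of the 35 genes below all 3 controls was 30 for Wnt4βKO replicate 1, 18 for replicate 2, 25 for replicate 3 and 29 for replicate 4, beside 26.9%, 21.7%, 20.8% and 26.3% of all probes with a value on every array.

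Expressed as carry-over, the 35 genes took 6.21%, 4.84% and 6.38% of the summed processed signal of control arrays 2, 3 and 4, and 3.31%, 5.10%, 4.89% and 3.64% of Wnt4βKO arrays 1 to 4. The groups overlapped, since Wnt4βKO replicates 2 and 3 exceeded control replicate 3, and the means were 5.81% ± 0.85 (SD, n = 3) and 4.24% ± 0.89 (SD, n = 4), with a like spread in both groups. Computed from the normexp-corrected signal, the shares did not overlap, at 4.29%, 3.77% and 4.14% in control and 2.42%, 3.72%, 3.49% and 2.54% in Wnt4βKO islets. These are shares of fluorescence, not of RNA.

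**Figure D3:**
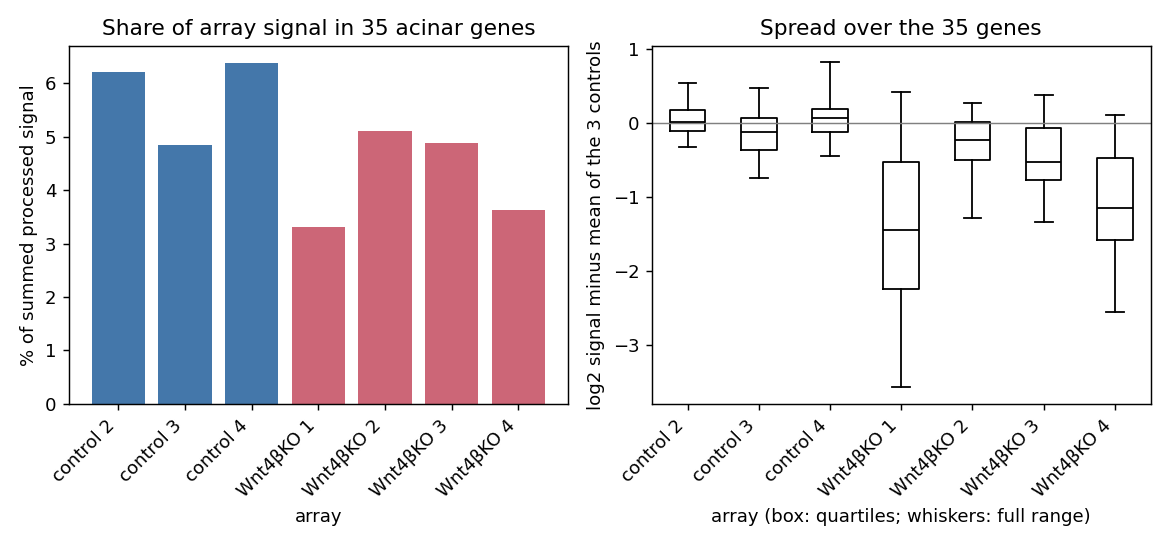
Left, percent of the summed processed signal of each array that lay in the 35 acinar genes (control blue, Wnt4βKO red); right, per array, the spread over the 35 genes of the log2 signal minus the control mean (box, quartiles; whiskers, full range; line, median). The shares overlap between groups at 4.84% to 5.10%, while the medians of Wnt4βKO replicates 1 and 4, at -1.45 and -1.15, lie lowest.

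Spike-in signal differed between the groups, and its part in the result was not tested. The mean log2 signal of 5 spike-in probes, for RNA added during labelling, minus the 75th percentile of each array was 1.16 ± 0.18 (SD, n = 3) on control and 1.94 ± 0.65 (SD, n = 4) on Wnt4βKO arrays. The groups did not overlap. Control replicates 2, 3 and 4 gave 1.35, 0.99 and 1.13, and Wnt4βKO replicates 1 to 4 gave 2.87, 1.90, 1.58 and 1.42. Wnt4βKO replicate 1 had the highest spike-in value of its group, and replicate 4, the other array with low acinar signal, the lowest. Within the first slide row (1 control and 2 Wnt4βKO arrays) the median difference was -0.81 with 30 of 35 genes negative, and within the second (2 against 2) it was -0.81 with 32 of 35 negative, so the median was as low within each row as over both.

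The size of the difference was not even over the range of probe signal. The 11 genes with the brightest probes in control islets (14.78 to 15.70) had a median difference of -0.33, the next 12 (12.58 to 14.29) a median of -1.04 and the dimmest 12 (6.84 to 12.20) a median of -1.20. Over the 35 genes the rank correlation of control signal with difference was 0.39 (Spearman), and over all 13648 tested genes -0.07, given as descriptions because genes of an array share its labelling and scaling. Probe signal reflects the probe as well as the mRNA, and 0 spots were flagged as saturated. The exceptions went both ways, since Ctrl, among the brightest, differed by -1.21, and Nr5a2, the dimmest, by -0.26.

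**Figure D4:**
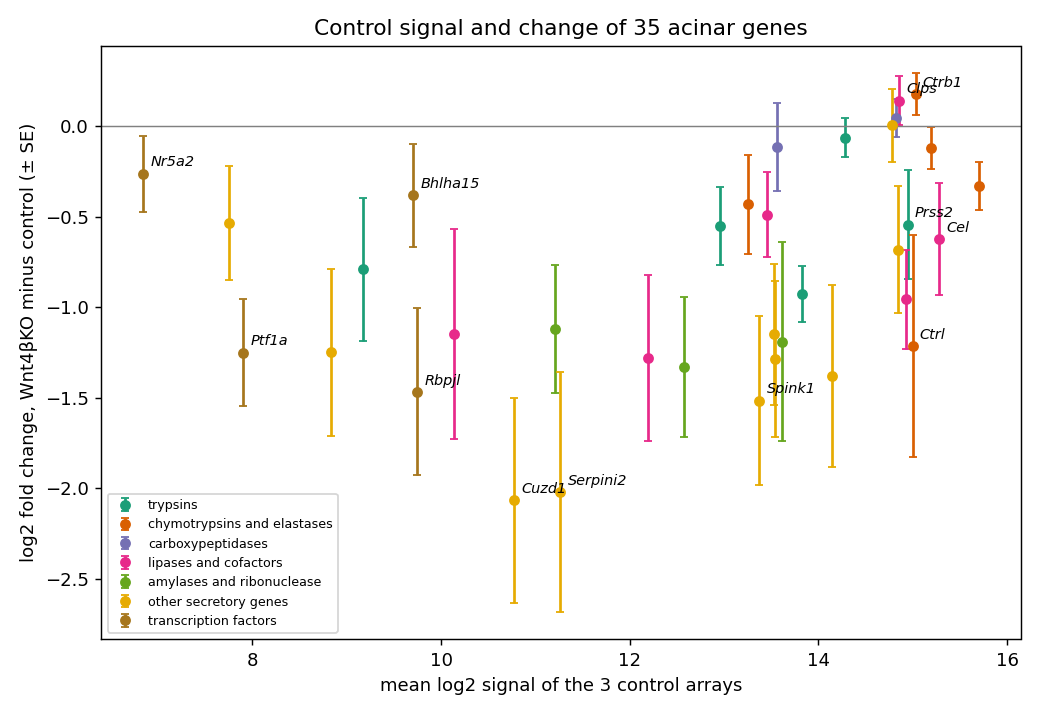
Log2 difference between Wnt4βKO and control islets (± SE, vertical) against the mean log2 signal of the 3 control arrays (horizontal) for the 35 acinar genes, coloured by class. Genes near 15 spread from 0.18 (Ctrb1) to -1.21 (Ctrl), and the lowest points, Cuzd1 (-2.07) and Serpini2 (-2.02), lie near 11.

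The scanner's own processed signal, scaled to the 75th percentile of each array, kept the overall picture and changed single genes. The median difference was -0.79 with 31 of 35 genes negative, against a median over all tested genes of 0.05, but groups did not overlap for 8 genes in place of 14. Ptf1a was further from 0 on that scale, at -2.16 in place of -1.25, and Nr5a2 at -0.81 in place of -0.26, and with quantile normalization kept and an offset of 0 they were at -2.04 and -0.59. Prss3 moved the other way, to -0.59 from -0.93. Sycn turned negative, at -0.19, and Cpb1 turned positive, at 0.06. The processed signal carries no added offset.

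**Figure D5:**
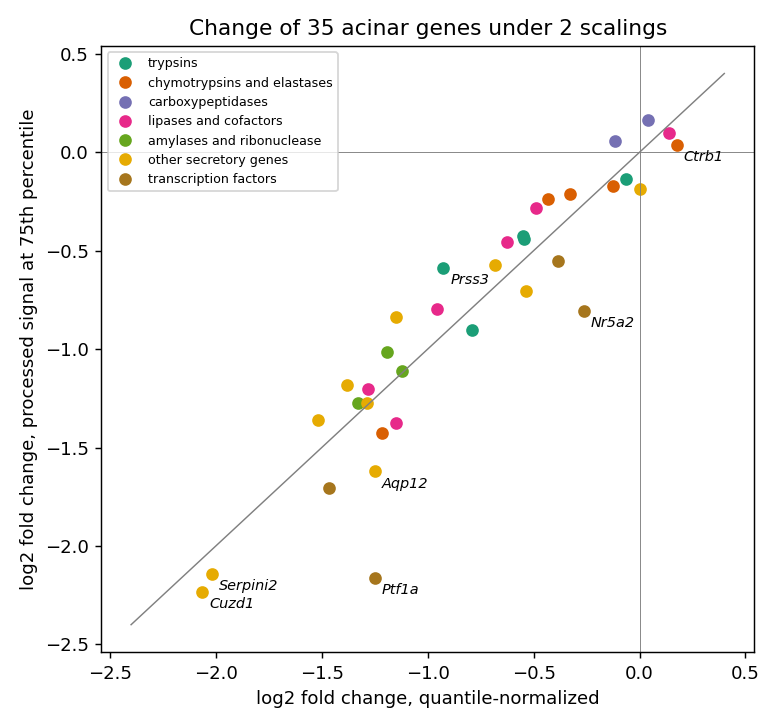
Log2 difference of each of the 35 acinar genes after quantile normalization with an offset of 50 (horizontal) and from the processed signal at the 75th percentile (vertical); the diagonal marks equal values. Most points lie along the diagonal, and Ptf1a (-1.25 and -2.16) and Nr5a2 (-0.26 and -0.81) lie below it.

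A further 18 genes of acinar function, among them membrane receptors, granule-release and secretory-pathway genes, were examined as a list. Of the 16 tested, 14 had a negative difference, beside 6615 of all 13648 tested genes, and the median was -0.38. At an unadjusted p under 0.05, 4 were lower and 0 higher, beside 3.76% of all tested probes called lower. In limma 0 passed the adjusted threshold. Every Wnt4βKO array lay below every control array for 2, beside 3.83% of all probes with a value on every array. The mean signal of the 16 genes ran from 9.73 to 9.84 in control and from 8.97 to 9.62 in Wnt4βKO islets. Many of these genes also act outside acinar cells.

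The marker lists of other islet cells were nearer to 0. The median was 0.01 over 10 β-cell markers, 0.06 over 5 α-cell markers and 0.05 over 4 δ- and PP-cell markers, and the mean of the β-cell markers ran from 11.62 to 11.75 in control and from 11.43 to 11.69 in Wnt4βKO islets. At an unadjusted p under 0.05, 629 of all 13648 tested genes were lower and 598 higher. Among the β-cell markers, 1 was lower and 1 higher at that threshold, each with no overlap. The lower one, Slc2a2, the glucose transporter, passed the adjusted threshold (-1.54 ± 0.10 SE, limma adjusted p = 0.00697), and the higher one, the insulin gene Ins1, named after its value was seen, did not (0.30 ± 0.11 SE, limma adjusted p = 0.651). Of 8 duct markers, the other exocrine cell type, 6 were tested, with a median of -0.19 and none past an unadjusted p of 0.05, and their mean ran from 7.57 to 7.65 in control and from 7.12 to 7.61 in Wnt4βKO islets. The duct means of Wnt4βKO replicates 1 and 4, at 7.12 and 7.24, were the lowest of the 7 arrays, as were their acinar means, while Cftr and Onecut1 were below the limit for testing. Medians of endothelial, stromal and immune markers were -0.11 over 5, 0.00 over 4 and 0.24 over 4 tested genes. The endothelial, stromal and immune means of Wnt4βKO replicate 1, at 7.92, 6.43 and 7.20, were also the lowest of the 7 arrays. Those of Wnt4βKO replicate 4, at 8.46, 8.13 and 8.39, were the highest.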

How the data were processed

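Islet RNA of 3 control and 4 Wnt4βKO samples was hybridized to 1-colour mouse arrays, with 50 ng of RNA labelled with Cy3 per array. The authors deposited scanner output with spot intensities on a linear scale, not normalized between arrays. The file headers name Agilent Feature Extraction 12.0.1.1, while the submitters' processing notes name 9.1. Following the authors' methods, median spot intensities were background-corrected with normexp at an offset of 50, log2-transformed and quantile-normalized in limma 3.58.1 (R 4.3.3). Outlier spots were set to missing (65 values among tested probes), control spots were left out, and probes were tested where 3 or more of the 7 arrays were well above background (26151 of 56605). Groups were compared with lmFit and eBayes, two-sided, with Benjamini-Hochberg adjustment over all tested probes. The number of arrays limits the precision. The labels do not say that each array held 1 animal, so p-values measure the spread between these samples.

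Probes were named through a RefSeq gene table of GRCm38.p6 (32994 probes), and each gene was represented by its brightest probe. Promoters came from RefSeq on the same build. A further table, deposited as log2 values of 36693 probes, had columns that did not match the arrays of their labels (2 of 7 correlated best with their own array, with column medians of 4.96 to 4.97). Its scale, centring and direction stay unknown, and it was not used. The genes and lists were chosen with earlier results of these data known, and all 37 acinar genes are reported. Alternatives were other background corrections, scalings, filters and variance models, array weights, blocks for replicate number and slide row, the mean over probes of a gene, and each array left out in turn. Deviations of same-numbered samples had correlations of -0.13, 0.23 and -0.01, which cannot exclude a pairing, and the main design had no block. The planned comparison of protein sequences between related enzymes was not made. Tables and plots were made in Python 3.11.15 with pandas 2.3.3 and matplotlib 3.10.9.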

Additional observations from a re-analysis of the deposited data

Results flagged for a closer look

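Among the 4 Wnt4βKO arrays, the quantile-normalized Sycn signal of replicate 1 (14.42) stood apart from the other 3, which lay between 14.89 and 14.94. Its gap to the nearest value was 0.902 of the range of the group, above the 95% critical value of Dixon's test for 4 values. Of 45 values examined this was the 1 above that limit, and chance gives about 1 in 20, or 2.2 here. On the same array Sycn was at 78.1% of the control mean. With the processed signal, scaled to the 75th percentile, Sycn of replicate 1 (9.0457) did not stand apart. Replicate 4 was close to it, at 9.0959, and replicates 2 and 3 were higher, at 9.2618 and 9.2951. The low value of replicate 1 therefore stood apart after quantile normalization and not on the processed scale.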

How the results depend on the processing

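The count of acinar genes lower at an adjusted p under 0.05 was 0 in limma under all 19 alternatives, and the lowest adjusted p of any acinar gene under any of them was 0.238, for Prss3. Of the 35 genes, 29 had a negative difference under every alternative. The median difference lay between -0.93 (offset of 0) and -0.62 (replicate block), and with 1 array left out between -1.03 and -0.61. The unadjusted count was 14 to 17 under other settings, against 16. Of all tested probes, 2.08% (median scaling) to 4.22% (slide row block) were called lower under these settings, against 3.76%. That share was not computed where probes were averaged per gene. The count was 8 to 24 with 1 array left out, beside 2.84% to 4.23% of all tested probes. The count without overlap was 8 with the processed signal, beside 3.94% of all probes, and 14 to 23 with 1 array left out, beside 5.16% to 8.31% of all probes, against 14 and 3.83%. The difference in the share of array signal was -1.02 percentage points with normexp signal and -1.59 with all probes, and lay between -2.06 and -1.27 with 1 array left out. Over all probes, 7 passed the adjusted threshold with the processed signal, 2 with the replicate block and 2 to 5 with 1 array left out, against 4. The Wnt4 difference lay between -0.67 and -0.35 with 1 array left out. Whether the replicate numbers pair the samples is not known. With the block for replicate number, the unadjusted count of acinar genes was 16, beside 3.01% of all probes. Replicate 1 occurs in the Wnt4βKO group alone, so under this block its array adds nothing to the estimated difference. With that array left out the median difference was -0.61, beside -0.62 with the block.

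Changes of sign were limited to 6 genes whose differences were near 0, none past a threshold, and the cause was not tested. With the processed signal these were Cpb1 (0.057) and Sycn (-0.19). With cyclic loess they were Sycn (-0.16), Ctrb1 (-0.14), Cpa1 (-0.18) and Clps (-0.098), so that all 35 genes were negative. With median scaling they were Sycn (-0.0094), Try5 (0.011) and Cpa1 (-0.028). Sycn gave -0.020 with array weights and Cpa1 -0.028 with the replicate block. With 1 array left out, Sycn lay between -0.22 and 0.12, Cpa1 between -0.029 and 0.11 and Cpb1 between -0.28 and 0.10.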
